A study of Mus musculus with 11 samples.

Results

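Fatty acid and glycerolipid synthesis was followed through 35 genes of 55416 gene identifiers, named for their roles in the pathway, with earlier results of these data known. They comprise 4 genes that supply carbon and reducing power, 4 of chain synthesis, 7 of elongation, 5 desaturases, 4 acyl-CoA synthetases, 9 of glycerolipid assembly and 2 lipogenic regulators. All 35 were listed in the data, and 33 averaged at least 10 normalized counts across libraries, which made them part of the 12909 genes tested. The remaining members were the regulators. Thrsp, a small protein of lipogenic tissue, had 5 reads over all 11 libraries, and Mlxipl, the glucose-responsive factor ChREBP, had 0 reads in every library, where 0 reads allow up to 2.65 to 3.43 normalized counts (3 reads).

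Polyadenylated RNA was sequenced from EC4, a line of mouse liver cancer cells in which MYC was labelled on (MYC high) or off (MYC low). Cells grown in DMEM with 200 µM methionine were given DMEM with 200 or 10 µM methionine for 24 h. Cells at 200 µM are called fed and those at 10 µM restricted. Fed MYC high cells gave 2 libraries (replicates 2 and 3), while fed MYC low, restricted MYC high and restricted MYC low cells gave 3 each; replicate 1 of fed MYC high cells was not analysed here. The agent that switches MYC is not given in the labels, all groups come from 1 cell line, and no label says that replicates were separate cultures. The p-values of single genes therefore set differences between group means only against the spread of these libraries, and that spread may be technical. By its title the series concerns methionine metabolism in MYC-driven liver cancer, and its 4 groups let the response to methionine be compared between MYC states.

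Libraries ranged from 10858936 to 13085689 gene reads, and across genes the replicates of a group correlated with Pearson r of 0.993 or more. Mitochondrial genes took 0.793 to 0.914% of the reads in MYC high and 1.52 to 1.74% in MYC low libraries, and the part of this difference in the comparisons of MYC states was not tested. Mouse Myc averaged 2089 normalized counts in fed MYC high and 1136 in fed MYC low cells (log2 difference 0.88, limma adjusted p = 6.0e-14). At 10 µM both MYC states averaged 336 (log2 difference -0.00, limma adjusted p = 0.95). The labels do not say whether the switched MYC is counted as mouse Myc, so MYC high and MYC low stand throughout for the libraries labelled so. The 12 hepatocyte markers, Alb among them, summed to at most 3.04 normalized counts in a library, so the labelled liver origin was not visible in mature hepatocyte genes. Marker sums of fibroblasts (2.12 to 30.4) and endothelium (0.904 to 8.0) were low. Of 8 progenitor markers, Igf2, Gpc3 and Epcam were at 0, and H19 and Dlk1 had 3 and 2 reads over all libraries. The list, mostly Krt19, summed to 1752 to 1814 normalized counts in fed MYC high and 3335 to 3654 in fed MYC low cells. At 10 µM the progenitor sum was 11929 to 13061 in MYC high and 11164 to 11406 in MYC low cells, while Sox9 of that list averaged 150.2 and 199 in fed and 43.0 and 119.7 in restricted MYC high and MYC low cells. Afp, the fetal liver marker of that list, averaged 153.7 and 89.2 in fed and 350.8 and 130.3 in restricted MYC high and MYC low cells. The 8 macrophage markers summed to 644 to 674, 919 to 963, 1061 to 1133 and 1302 to 1413 in fed MYC high, fed MYC low, restricted MYC high and restricted MYC low cells. Of these markers Ptprc, Clec4f and Marco were at 0, and Adgre1 and Lyz2 had 1 and 6 reads over all libraries. Within that sum Cd68 averaged 28.2, 88.9, 453.6 and 204 in the same order, Csf1r 246, 420, 435 and 744, and Cd14 385, 429.9, 204.7 and 392. The 8 adipocyte markers summed to 586 to 641, 952 to 1009, 557 to 612 and 860 to 878 in the same order, with Plin1 and Lep at 0, and were mostly Pparg (579, 977, 567 and 867). Adipoq, Fabp4, Retn and Adig had 1, 2, 1 and 2 reads over all libraries. Cidec of that list averaged 33.6, 7.54, 11.8 and 3.01, higher in MYC high cells in both media, where Pparg was lower. These sums and genes move with the groups, and their part in the results was not tested.

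Cells build fatty acids from acetyl-CoA that the citrate carrier and ATP-citrate lyase bring to the cytosol, which acetyl-CoA carboxylase and fatty acid synthase turn into palmitate. Palmitate is joined to coenzyme A, elongated, desaturated and fixed step by step on glycerol phosphate to give phospholipids and triglycerides. Much of this program is known to be driven by the SREBP transcription factors, which in liver answer to insulin, sterols and the phosphatidylcholine that cells make partly with methyl groups from methionine.

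To show what lies upstream of members that rose or fell strongly and of Fasn, whose direction differed between MYC states, RefSeq windows of 250 bases before the annotated start are printed for 5 genes. Slc25a1, Tecr and Elovl6 rose at low methionine, and Gpat3 and, in MYC high cells, Fasn fell. Coordinates are of GRCm38.p6, whereas the deposited values were made on GRCm39. Capitals mark CCAAT boxes (CCAAT, or ATTGG on the other strand) and E-boxes (CACGTG); the boxes CCAAT and ATTGG of the Fasn window overlap in 1 place. The windows are Fasn at chr11:120824548-120824797 (minus strand), Slc25a1 at chr16:17928220-17928469 (minus strand), Tecr at chr8:83594492-83594741 (minus strand), Elovl6 at chr3:129532136-129532385 (plus strand) and Gpat3 at chr5:100845979-100846228 (plus strand).
Fasn: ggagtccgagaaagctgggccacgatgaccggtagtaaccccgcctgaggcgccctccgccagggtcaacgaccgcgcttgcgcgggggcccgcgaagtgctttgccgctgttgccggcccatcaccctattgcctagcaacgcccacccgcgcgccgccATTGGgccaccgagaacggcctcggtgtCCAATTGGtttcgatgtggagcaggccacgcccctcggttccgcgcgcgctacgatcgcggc
Slc25a1: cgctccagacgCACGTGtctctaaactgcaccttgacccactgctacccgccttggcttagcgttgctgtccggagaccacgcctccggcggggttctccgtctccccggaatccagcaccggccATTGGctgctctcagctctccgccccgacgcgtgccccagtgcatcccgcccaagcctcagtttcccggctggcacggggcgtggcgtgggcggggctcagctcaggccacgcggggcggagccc
Tecr: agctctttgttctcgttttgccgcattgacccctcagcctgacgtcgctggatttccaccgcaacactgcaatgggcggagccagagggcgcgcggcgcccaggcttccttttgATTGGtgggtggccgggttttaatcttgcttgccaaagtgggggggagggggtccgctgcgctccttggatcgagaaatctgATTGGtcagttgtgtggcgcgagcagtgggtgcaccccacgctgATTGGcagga
Elovl6: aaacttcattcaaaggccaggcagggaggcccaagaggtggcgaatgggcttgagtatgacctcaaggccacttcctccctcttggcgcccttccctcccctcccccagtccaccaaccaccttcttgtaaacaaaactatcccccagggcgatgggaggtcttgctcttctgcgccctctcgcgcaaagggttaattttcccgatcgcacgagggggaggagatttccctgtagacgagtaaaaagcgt
Gpat3: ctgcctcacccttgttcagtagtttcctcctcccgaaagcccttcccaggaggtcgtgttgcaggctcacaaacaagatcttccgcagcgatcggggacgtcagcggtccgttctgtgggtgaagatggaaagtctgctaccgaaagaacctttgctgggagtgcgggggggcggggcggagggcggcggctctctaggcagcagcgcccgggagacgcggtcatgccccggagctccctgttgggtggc

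Fasn and Tecr each held 3 CCAAT boxes, Slc25a1 held 1 CCAAT box and 1 E-box, and the Elovl6 and Gpat3 windows held neither. RefSeq windows were found for 28 of the 35 members, 36 windows in all. For 31 of the 36, the bases after the start were found in a GENCODE M21 transcript of the gene. A CCAAT box was in 19 of these 36 windows and in 33.8% of all 32851 windows, an E-box in 5 and in 6.02% of all, and the SREBP site TCACNCCAC in 2, of Acsl1 and Mlxipl, and in 1.05% of all. Both strands were searched, and a match is a description of letters, not a site. The median GC content was 64.0% for the members' windows and 52.4% for all windows.

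Low methionine raised most members of the pathway in both MYC states. In MYC high cells 27 of 33 members rose (background 37.9% of all tested genes), 4 fell (37.9%) and 2 did not pass at an adjusted p of 0.05. The members' median log2 difference was 0.69, against -0.00 over all tested genes. A rise of at least 2-fold was seen for 10 members (background 13.0%) and a fall of at least 2-fold for 1 (9.18%). In MYC low cells 24 members rose (29.4%), 4 fell (29.9%) and 5 did not pass, with a median of 0.36 against 0.00 over all tested genes. There 3 members rose at least 2-fold (3.39%) and 1 fell as far (2.17%). These responses come from different libraries and share none. In bulk RNA, fewer cells of a type and less RNA per cell cannot be told apart.

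**Figure D1:**
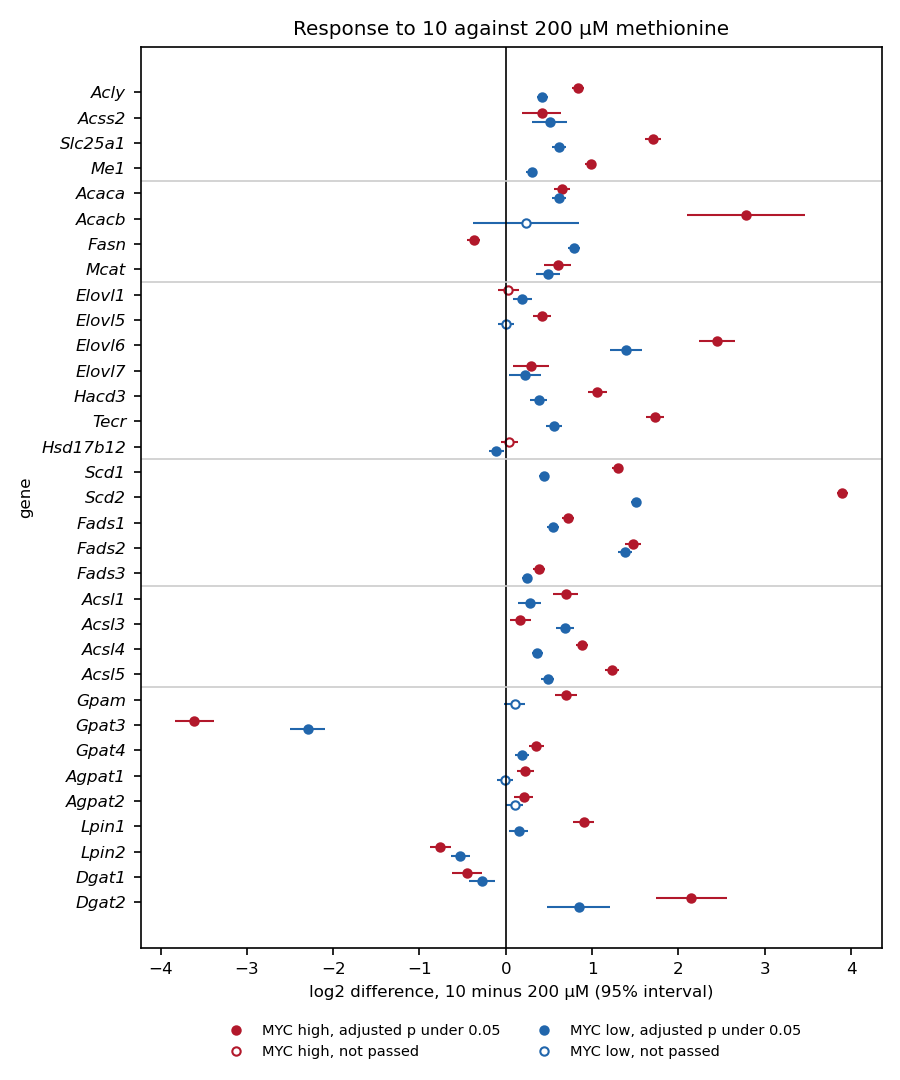
Log2 difference between 10 and 200 µM methionine for each tested member in MYC high and MYC low cells, with limma's 95% intervals and open points where the adjusted p did not pass. Most members lie above 0, Scd2 has the highest value in MYC high cells (3.90), and Gpat3 the lowest in both MYC states (-3.61 and -2.29).

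The difference between MYC states depended on the medium for many members, as it did for 60.4% of all tested genes. At 200 µM, 7 members were higher in MYC high cells (background 36.8%), 19 were lower (37.6%) and 7 did not pass, with a median log2 difference of -0.21 against -0.00 over all tested genes. At 10 µM, 13 were higher (35.7%), 11 were lower (35.8%) and 9 did not pass, with a median of 0.06 against 0.00. These comparisons share no library with each other, but each shares libraries with the methionine comparisons. At least 2-fold differences were 2 higher (6.79%) and 5 lower (12.1%) at 200 µM, and 3 higher (6.41%) and 2 lower (7.92%) at 10 µM. All counts at 10 µM, and the 2-fold counts at 200 µM, are near the shares of all tested genes. Tested as an interaction, the methionine response was more positive in MYC high cells for 21 members (31.0%), more negative for 4 (29.4%) and not distinguished for 8, so that 25 passed in either direction (60.4%), with a median of 0.24 against 0.01. It was at least 2-fold for 6 members in the positive direction (background 8.09%) and for 2 in the negative (4.75%).

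**Figure D2:**
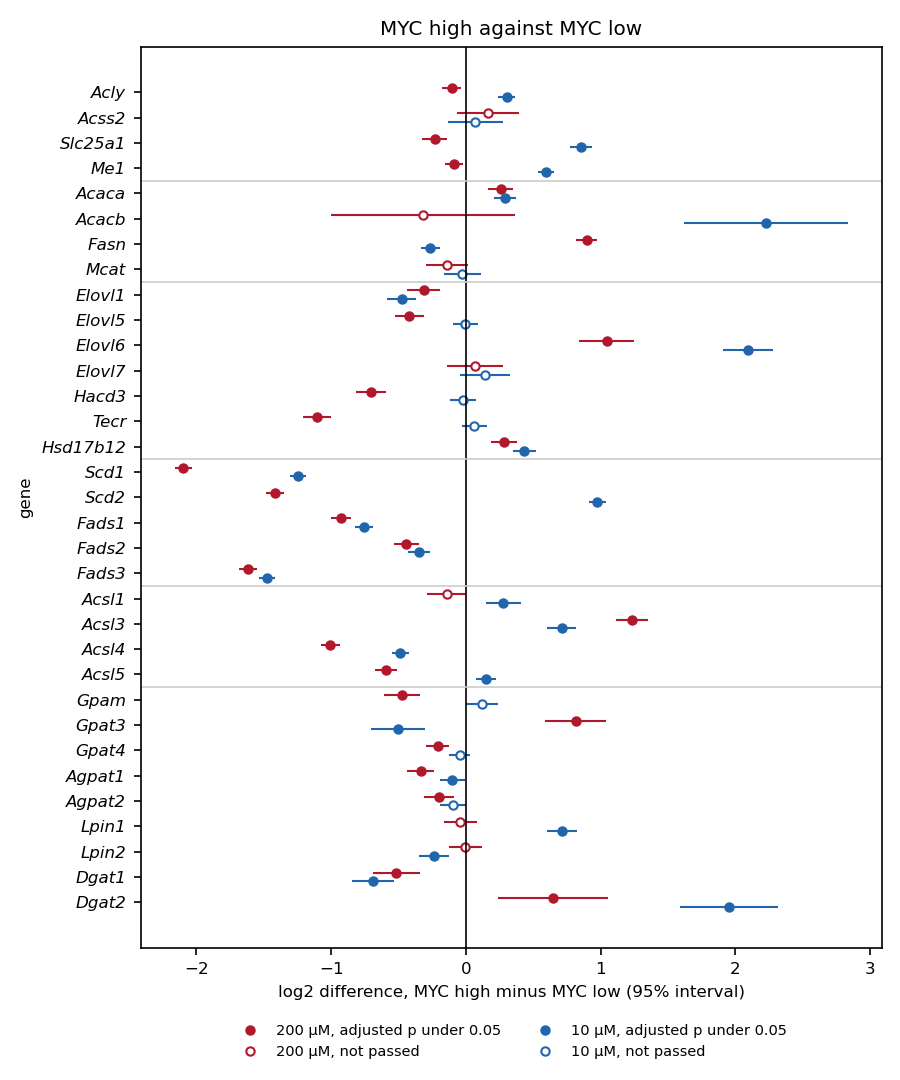
Log2 difference between MYC high and MYC low cells for each tested member at 200 and at 10 µM methionine, with limma's 95% intervals and open points where the adjusted p did not pass. Scd2 lies below 0 at 200 µM (-1.41) and above 0 at 10 µM (0.98), whereas Fasn lies above 0 at 200 µM (0.90) and below it at 10 µM (-0.26).

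Levels between genes are given as normalized counts per kb of all annotated exons of a gene joined together. This length can exceed that of any transcript, as for Acaca (17074 bases, against 9513 in its longest transcript). The order of members and the shares between them depend on this choice of length. In fed MYC high cells the highest members were Me1 (1781 per kb), Scd1 (1077), Scd2 (852) and Fasn (808). At 10 µM the order in these cells was Scd2 (12712 per kb), Me1 (3516), Scd1 (2646) and Slc25a1 (1661). The heat map of all members by library shows the same groups without a library that stands apart.

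**Figure D3:**
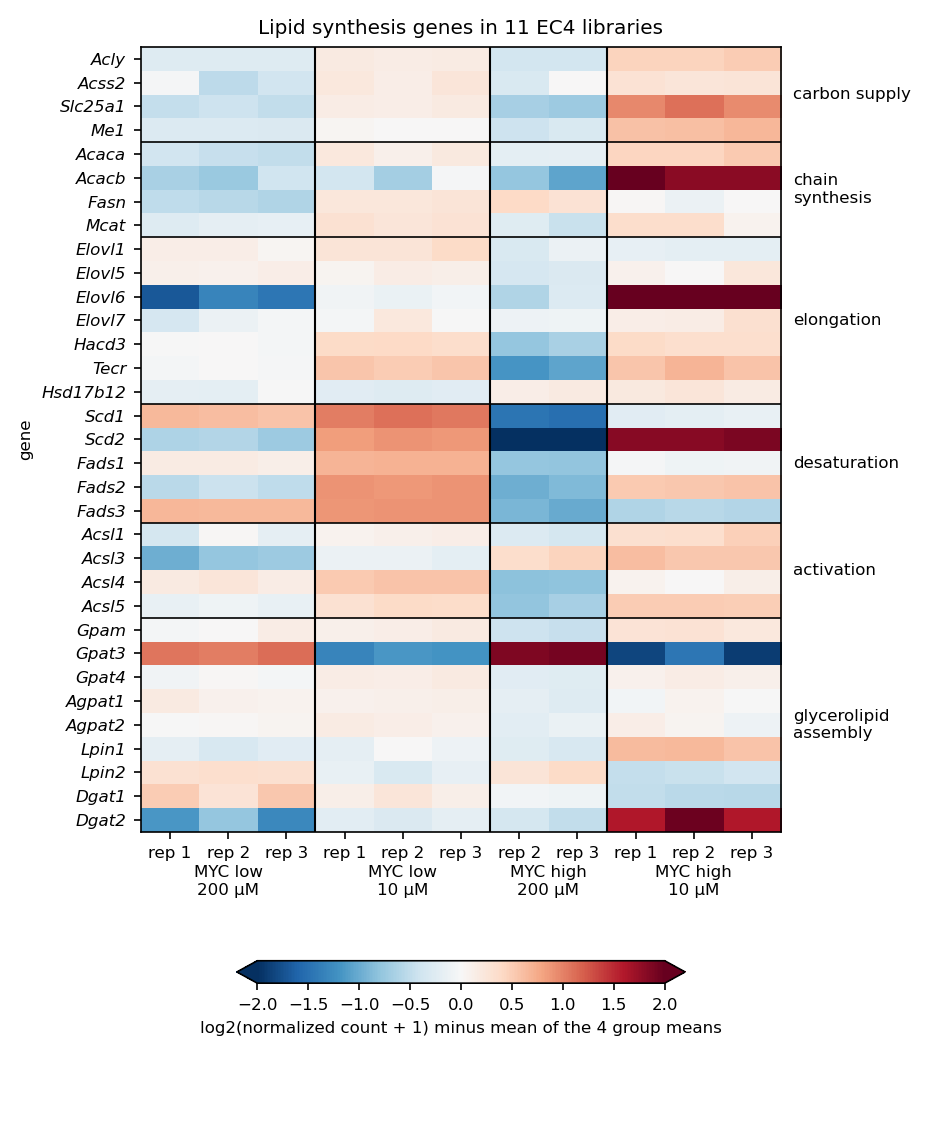
Normalized counts of the tested members in the 11 libraries, ordered by role, each as log2 of the value plus 1 minus the mean of that member's 4 group means. Desaturases and most elongation and activation genes are lowest in the libraries of fed MYC high cells, and Gpat3 is lowest in both groups at 10 µM.

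The desaturases put double bonds into acyl chains, and all 5 rose at low methionine in both MYC states, beside 37.9% (MYC high) and 29.4% (MYC low) of all tested genes. Their medians were 1.30 with MYC high and 0.55 with MYC low. All 5 were lower in fed MYC high cells (median -1.41, background 37.6%), and 4 of 5 at 10 µM (background 35.8%), where Scd2 was higher. Scd1 and Scd2 are stearoyl-CoA desaturases, which make oleate and palmitoleate.

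Scd2 (ENSMUSG00000025203) stood at 4752 and 4557 normalized counts in fed MYC high cells, 12621, 12911 and 11717 in fed MYC low cells, 68471, 68641 and 71266 in restricted MYC high cells, and 34482, 36022 and 35318 in restricted MYC low cells. The groups did not overlap, and the MYC high libraries went from the lowest to the highest of all when methionine was low. The rise was 14.9-fold in MYC high cells (log2 3.90, SE 0.034, limma adjusted p = 8.6e-44) and 2.84-fold in MYC low cells (log2 1.51, SE 0.030, limma adjusted p = 8.9e-32). The responses differed by 2.39 on the log2 scale (limma adjusted p = 4.0e-32). Against MYC low cells, Scd2 was 2.67-fold lower at 200 µM and 1.97-fold higher at 10 µM (limma adjusted p = 8.3e-30 and 1.4e-26).

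Scd1 (ENSMUSG00000037071) read 5357 and 5185 in fed MYC high cells, 23216, 22547 and 21919 in fed MYC low cells, 12635, 12916 and 13281 in restricted MYC high cells, and 29874, 31747 and 30509 in restricted MYC low cells. MYC high libraries were below all MYC low libraries in both media. The MYC high cells were 4.28-fold lower at 200 µM (log2 -2.10, SE 0.032, limma adjusted p = 1.5e-35) and 2.37-fold lower at 10 µM (log2 -1.25, SE 0.029, limma adjusted p = 1.4e-30). Low methionine raised Scd1 2.46-fold with MYC high and 1.36-fold with MYC low (interaction log2 0.85, limma adjusted p = 5.0e-19).

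The share of Scd1 in the sum of both genes per kb was 55.9% ± 0.160 (SD, n = 2) in MYC high and 67.0% ± 0.795 (n = 3) in fed MYC low cells. At 10 µM the Scd1 share was 17.2% ± 0.139 (n = 3) in MYC high and 49.3% ± 0.270 (n = 3) in MYC low cells. No group overlapped with another, and the sum itself averaged 1929, 6884, 15358 and 12733 normalized counts per kb in the same order. An exact two-sided permutation test of the share gave p = 0.2 for 2 against 3 libraries and p = 0.1 for 3 against 3, the smallest these designs can give (4 comparisons, Benjamini-Hochberg adjusted p = 0.2 for each). Sequence shared with the paralog or with Scd3 covered 4.66% of the 50-base windows of Scd1 and 4.01% of those of Scd2.

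**Figure D4:**
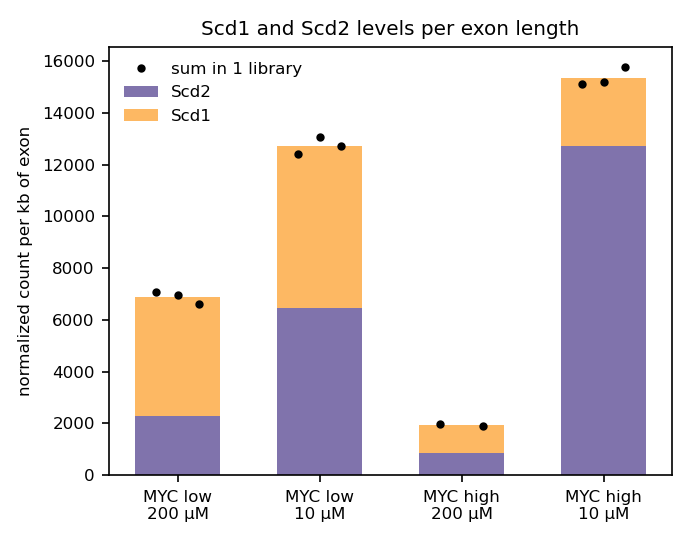
Group means of Scd1 and Scd2 in normalized counts per kb, stacked for each of the 4 groups, with points for the sum of both genes in each library. The Scd1 part is larger than the Scd2 part in both groups at 200 µM. In restricted MYC high cells the Scd2 part (12712) is larger than the Scd1 part (2646).

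The fatty acid desaturases Fads1 and Fads2 act on polyunsaturated chains, and Fads3 is their paralog in the same gene cluster. Fads2 had 702 and 747 normalized counts in fed MYC high cells, 949.7, 1025 and 976 in fed MYC low cells, 1987, 2009 and 2052 in restricted MYC high cells, and 2577, 2533 and 2575 in restricted MYC low cells. Both media kept MYC high below MYC low libraries, and both MYC states were higher at 10 µM. The rise was 2.78-fold in MYC high (log2 1.48, SE 0.045, limma adjusted p = 1.3e-26) and 2.60-fold in MYC low cells (log2 1.38, SE 0.040, limma adjusted p = 1.4e-26), and the interaction of 0.10 (SE 0.060) did not pass (limma adjusted p = 0.17).

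Fads3 stood at 2814 and 2645 in fed MYC high cells, 8411, 8379 and 8346 in fed MYC low cells, 3496, 3646 and 3549 in restricted MYC high cells, and 9865, 9947 and 9939.9 in restricted MYC low cells. It separated by MYC state far more than by medium. MYC high cells were 3.07-fold lower at 200 µM and 2.78-fold lower at 10 µM (limma adjusted p = 9.3e-32 and 2.2e-32), whereas low methionine raised Fads3 by 0.39 and 0.24 (log2) in MYC high and MYC low cells (limma adjusted p = 5.1e-13 and 6.4e-09). Fads1 lay between its neighbours, 1.90-fold lower in fed MYC high cells and 1.65-fold higher at low methionine in MYC high cells (limma adjusted p = 3.0e-23 and 5.9e-20).

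In the supply of carbon and reducing power, all 4 members rose at low methionine in both MYC states (background 37.9% with MYC high and 29.4% with MYC low). Their medians were 0.91 with MYC high and 0.47 with MYC low. Slc25a1, the mitochondrial citrate carrier, had 1122 and 1084 normalized counts in fed MYC high cells, 1279, 1338 and 1268 in fed MYC low cells, 3489, 3837 and 3459.8 in restricted MYC high cells, and 1978, 1953 and 2034 in restricted MYC low cells. Its lowest and highest libraries were both of MYC high cells. It rose 3.25-fold with MYC high and 1.53-fold with MYC low (log2 1.70, SE 0.045, and 0.62, SE 0.040, limma adjusted p = 1.1e-28 and 4.7e-16), with an interaction of 1.08 (limma adjusted p = 7.3e-18).

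Acly, the ATP-citrate lyase, read 2756 and 2768 in fed MYC high cells, 2964, 2962 and 2986 in fed MYC low cells, 4825, 4871 and 5061 in restricted MYC high cells, and 4039, 3949 and 3974 in restricted MYC low cells. Libraries at 10 µM were all above those at 200 µM, with rises of 1.78-fold with MYC high and 1.34-fold with MYC low (limma adjusted p = 2.2e-22 and 1.5e-14). The small MYC difference at 200 µM (log2 -0.11, limma adjusted p = 0.0069) did not pass with upper-quartile scaling (adjusted p = 0.12).

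Acss2, the cytosolic acetyl-CoA synthetase, stood at 185 and 230.2 in fed MYC high cells, 224, 159 and 175 in fed MYC low cells, 280.1, 271 and 275 in restricted MYC high cells, and 265, 252 and 271 in restricted MYC low cells. All libraries at 10 µM were above those at 200 µM, by log2 differences of 0.42 with MYC high and 0.51 with MYC low (SE 0.112 and 0.100, limma adjusted p = 0.0012 and 3.8e-05). Without replicate 2 of fed MYC high cells the former was 0.26 with an adjusted p of 0.083, and the MYC difference at 200 µM became 0.32 (adjusted p = 0.033). Without replicate 1 of fed MYC low cells the latter was 0.31 (limma adjusted p = 0.013), against 0.16 with all libraries (limma adjusted p = 0.18). Me1, the malic enzyme that makes NADPH, had 6607 and 7099 normalized counts in fed MYC high cells, 7268, 7299 and 7240.04 in fed MYC low cells, 13232, 13391 and 13969 in restricted MYC high cells, and 9078, 8848 and 8895 in restricted MYC low cells. Its libraries at 10 µM were above those at 200 µM in both MYC states, by log2 0.98 with MYC high and 0.30 with MYC low (limma adjusted p = 2.4e-25 and 3.9e-11). Part of the Me1 transcript (26.5% of 50-base windows) is shared with the pseudogene Gm7049.

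In chain synthesis the members parted. Fasn, the fatty acid synthase (ENSMUSG00000025153), had 9220.2 and 8469 normalized counts in fed MYC high cells, 4906, 4751 and 4588 in fed MYC low cells, 7075, 6432 and 6994 in restricted MYC high cells, and 8124, 8134 and 8355 in restricted MYC low cells. MYC high libraries were above fed MYC low libraries and below them at 10 µM. Low methionine lowered Fasn 1.29-fold in MYC high cells (log2 -0.37, SE 0.039, limma adjusted p = 5.7e-11) and raised it 1.73-fold in MYC low cells (log2 0.79, SE 0.034, limma adjusted p = 4.3e-21). The interaction was -1.16 (SE 0.052, limma adjusted p = 1.1e-20). Fasn thus passed in opposite directions in the MYC states. The share of all tested genes that did so was not counted, so this is not read as particular to Fasn.

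Acaca, the acetyl-CoA carboxylase that commits carbon to the pathway, read 1469 and 1475 in fed MYC high cells, 1286, 1213 and 1195 in fed MYC low cells, 2267, 2258 and 2402 in restricted MYC high cells, and 1941, 1803 and 1927 in restricted MYC low cells. It rose 1.57-fold with MYC high and 1.53-fold with MYC low (limma adjusted p = 1.2e-15 and 6.1e-16), and the interaction of 0.03 (SE 0.061) did not pass (limma adjusted p = 0.68). Sequence shared with the pseudogene Gm5182, which averaged 11.3 normalized counts, covers 52.6% of its 50-base windows. Acacb, the mitochondrial isoform linked to control of fatty acid oxidation, had 8.0 and 6.37 in fed MYC high cells, 8.78, 8.19 and 10.6 in fed MYC low cells, 60.1, 52.7 and 52.7 in restricted MYC high cells, and 10.8, 8.54 and 14.1 in restricted MYC low cells. Only the restricted MYC high libraries stood out, with a rise of 6.88-fold (log2 2.78, SE 0.337, limma adjusted p = 2.3e-09) and an interaction of 2.55 (limma adjusted p = 8.0e-06). Even there Acacb was 4.07% of the summed carboxylases per kb. Group means were 7.18, 9.20, 55.1 and 11.2 in the same order. The mean of 21.9 over all libraries thus met the filter of 10 largely through the restricted MYC high group. The rise and interaction of Acacb, which the counts of members include, are therefore only a description. Mcat, of the mitochondrial fatty acid synthesis system, rose by 0.60 and 0.48 (log2) in MYC high and MYC low cells (limma adjusted p = 8.0e-09 and 1.3e-07).

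Elongation adds carbon pairs through a condensing ELOVL enzyme, a reductase (HSD17B12), a dehydratase (HACD3) and a second reductase (TECR). In MYC high cells 5 of 7 of these members rose at low methionine (background 37.9%) and 2, Elovl1 and Hsd17b12, did not pass, with a median of 0.42. In MYC low cells 5 rose (29.4%), 1 fell (29.9%) and 1 did not pass, with a median of 0.22. Elovl6, which elongates palmitate, had 166 and 207 normalized counts in fed MYC high cells, 77.0, 100.3 and 91.9 in fed MYC low cells, 1018, 999 and 1019.6 in restricted MYC high cells, and 239.5, 229.6 and 241 in restricted MYC low cells. MYC high libraries were above MYC low libraries in both media, and the rise was 5.44-fold with MYC high and 2.63-fold with MYC low (log2 2.44, SE 0.102, and 1.40, SE 0.091, limma adjusted p = 2.2e-22 and 5.9e-16). The interaction was 1.05 (SE 0.137, limma adjusted p = 2.8e-08).

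Tecr stood at 417 and 454 in fed MYC high cells, 927, 949.6 and 931 in fed MYC low cells, 1398, 1515 and 1410.4 in restricted MYC high cells, and 1388, 1354 and 1389.8 in restricted MYC low cells. MYC high cells were 2.15-fold lower at 200 µM (log2 -1.10, SE 0.051, limma adjusted p = 8.0e-21), and at 10 µM the difference of 0.06 (SE 0.046) did not pass (limma adjusted p = 0.21). The rise was 3.30-fold with MYC high and 1.47-fold with MYC low (limma adjusted p = 5.5e-27 and 3.9e-13).

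Hacd3 had 466 and 512 normalized counts in fed MYC high cells, 798, 809 and 782 in fed MYC low cells, 1045, 1012 and 1006 in restricted MYC high cells, and 1039.5, 1054 and 1019 in restricted MYC low cells. It rose 2.09-fold with MYC high and 1.30-fold with MYC low (limma adjusted p = 8.8e-20 and 1.2e-08), and the MYC difference was -0.70 at 200 µM and -0.02 at 10 µM (limma adjusted p = 1.8e-14 and 0.68). Elovl5, which acts on polyunsaturated chains, rose by log2 0.42 in MYC high cells (limma adjusted p = 4.8e-09), with 0.00 in MYC low cells (adjusted p = 0.98). Elovl1, of very long chains, was lower in MYC high cells by log2 -0.31 at 200 µM and -0.48 at 10 µM (limma adjusted p = 1.9e-05 and 7.0e-10). Hsd17b12 was higher in MYC high cells by 0.28 and 0.43 (limma adjusted p = 1.6e-06 and 1.3e-11), and its fall of -0.11 at low methionine in MYC low cells (adjusted p = 0.026) did not pass without replicate 3 of that group at 200 µM (log2 -0.05, adjusted p = 0.34). Elovl7, of long saturated chains, rose by 0.29 and 0.22 (limma adjusted p = 0.0095 and 0.039), calls that were lost without replicate 3 of restricted MYC high cells (log2 0.24, adjusted p = 0.052) or, in MYC low cells, without replicate 1 at 200 µM (log2 0.13, adjusted p = 0.25).

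Acyl-CoA synthetases join fatty acids to coenzyme A before use, and all 4 rose at low methionine in both MYC states. The medians were 0.79 with MYC high (background 37.9% of all tested genes risen) and 0.42 with MYC low (29.4%). Acsl5 had 1657 and 1808 normalized counts in fed MYC high cells, 2583, 2688 and 2569 in fed MYC low cells, 4071, 4057 and 4036 in restricted MYC high cells, and 3516, 3745 and 3703 in restricted MYC low cells. MYC high libraries passed from below to above the MYC low libraries, with a rise of 2.34-fold against 1.40-fold (limma adjusted p = 8.0e-26 and 1.7e-14, interaction log2 0.74, adjusted p = 1.1e-14). Acsl4, which prefers arachidonic acid, read 3209 and 3263 in fed MYC high cells, 6428, 6761 and 6330.3 in fed MYC low cells, 5966, 5738 and 6181 in restricted MYC high cells, and 8181, 8467 and 8423 in restricted MYC low cells. It stayed lower in MYC high cells in both media, 2.01-fold at 200 µM and 1.40-fold at 10 µM (limma adjusted p = 1.3e-24 and 1.6e-16).

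Acsl3, a synthetase of the endoplasmic reticulum and of lipid droplets, ran the other way by MYC state. It stood at 1239 and 1316 in fed MYC high cells, 488, 562 and 584 in fed MYC low cells, 1482, 1411 and 1408 in restricted MYC high cells, and 892, 888 and 844 in restricted MYC low cells. MYC high cells were 2.35-fold higher at 200 µM and 1.64-fold higher at 10 µM (log2 1.23, SE 0.059, and 0.71, SE 0.053, limma adjusted p = 1.9e-20 and 8.6e-15). Its rise at low methionine was 0.69 in MYC low cells and 0.17 in MYC high cells (limma adjusted p = 5.9e-14 and 0.011, interaction -0.52, adjusted p = 5.7e-07), and the call in MYC high cells was lost without replicate 2 of those cells at 200 µM (log2 0.12, adjusted p = 0.14). Acsl1, the main isoform of liver, rose by log2 0.69 with MYC high and 0.28 with MYC low (limma adjusted p = 4.6e-11 and 3.2e-04).

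Of 9 members of glycerolipid assembly, 6 rose and 3 fell at low methionine in MYC high cells (median 0.23), where 37.9% of all tested genes rose and 37.9% fell. In MYC low cells 3 rose, 3 fell and 3 did not pass (median 0.10), against 29.4% and 29.9% of all tested genes. The first step, the acylation of glycerol 3-phosphate, is run by GPAM in mitochondria and by GPAT3 and GPAT4 in the endoplasmic reticulum. Gpat3 (ENSMUSG00000029314) had 845 and 872 normalized counts in fed MYC high cells, 486, 473 and 503 in fed MYC low cells, 64.2, 84.1 and 61.8 in restricted MYC high cells, and 92.2, 103 and 101 in restricted MYC low cells. Every library at 10 µM was far below every library at 200 µM, and the MYC high libraries moved from the highest to the lowest. Gpat3 fell 12.2-fold in MYC high cells (log2 -3.61, SE 0.111, limma adjusted p = 1.8e-26) and 4.90-fold in MYC low cells (log2 -2.29, SE 0.100, limma adjusted p = 3.6e-21), with an interaction of -1.32 (limma adjusted p = 1.3e-09). Its exons overlap on the opposite strand with 1052 bases of 4930458D05Rik, which averaged 76.8 normalized counts, and without the strand setting reads of the pair cannot be told apart. The same limit holds for other members. Among them, Acss2 overlaps 395 bases of Gss (mean 657) and Acsl5 overlaps 404 bases of Zdhhc6 (mean 1601).

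Gpam read 407 and 394 in fed MYC high cells, 525, 543 and 602 in fed MYC low cells, 658, 665 and 626 in restricted MYC high cells, and 583, 594 and 613 in restricted MYC low cells. The MYC high libraries rose 1.62-fold (log2 0.70, SE 0.065, limma adjusted p = 4.3e-12), whereas the MYC low libraries overlapped (log2 0.10, SE 0.058, adjusted p = 0.13). Gpat4 rose by log2 0.35 and 0.19 (limma adjusted p = 3.4e-09 and 7.8e-05). As a share of the 3 acyltransferases per kb, Gpat3 was 48.2% in fed MYC high and 30.4% in fed MYC low cells, and 5.28% and 7.30% at 10 µM. Agpat1 and Agpat2, which add the second acyl chain, rose by log2 0.23 and 0.21 in MYC high cells (limma adjusted p = 1.3e-04 and 9.1e-04), with -0.01 and 0.10 in MYC low cells (limma adjusted p = 0.87 and 0.067).

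Lipins remove phosphate from phosphatidic acid to give diacylglycerol. Lpin1 stood at 591 and 558 in fed MYC high cells, 617, 559 and 598 in fed MYC low cells, 1087, 1098 and 1042 in restricted MYC high cells, and 618, 699 and 649.9 in restricted MYC low cells. The MYC states overlapped at 200 µM and parted at 10 µM, where MYC high cells were 1.64-fold higher (limma adjusted p = 1.8e-14). Lpin1 rose 1.87-fold in MYC high cells (limma adjusted p = 4.4e-16), and its rise of 0.15 in MYC low cells (limma adjusted p = 0.018) was lost without replicate 2 of those cells at 10 µM (log2 0.10, adjusted p = 0.15) or at 200 µM (log2 0.11, adjusted p = 0.12). Lpin2 fell by 0.76 and 0.53 on the log2 scale (limma adjusted p = 8.7e-14 and 1.4e-10). The Lpin1 share of both lipins per kb was 46.6% and 47.3% in fed MYC high and fed MYC low cells, and 73.4% and 58.9% at 10 µM.

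The last step to triglyceride is run by the unrelated acyltransferases DGAT1 and DGAT2, and these moved in opposite directions. Dgat2 had 40.0 and 36.1 normalized counts in fed MYC high cells, 22.4, 29.7 and 20.3 in fed MYC low cells, 158, 204 and 158 in restricted MYC high cells, and 44.3, 41.7 and 45.0 in restricted MYC low cells. Restricted MYC high libraries were well above all others. Dgat2 rose 4.43-fold in MYC high cells (log2 2.15, SE 0.201, limma adjusted p = 4.5e-12) and 1.80-fold in MYC low cells (log2 0.85, SE 0.180, limma adjusted p = 1.1e-04), with an interaction of 1.30 (limma adjusted p = 8.1e-05). Dgat1 fell by 0.45 and 0.28 on the log2 scale (limma adjusted p = 1.4e-05 and 0.0021), and the Dgat2 share of both per kb was 11.2% and 5.37% in fed MYC high and fed MYC low cells, and 43.8% and 11% at 10 µM.

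**Figure D5:**
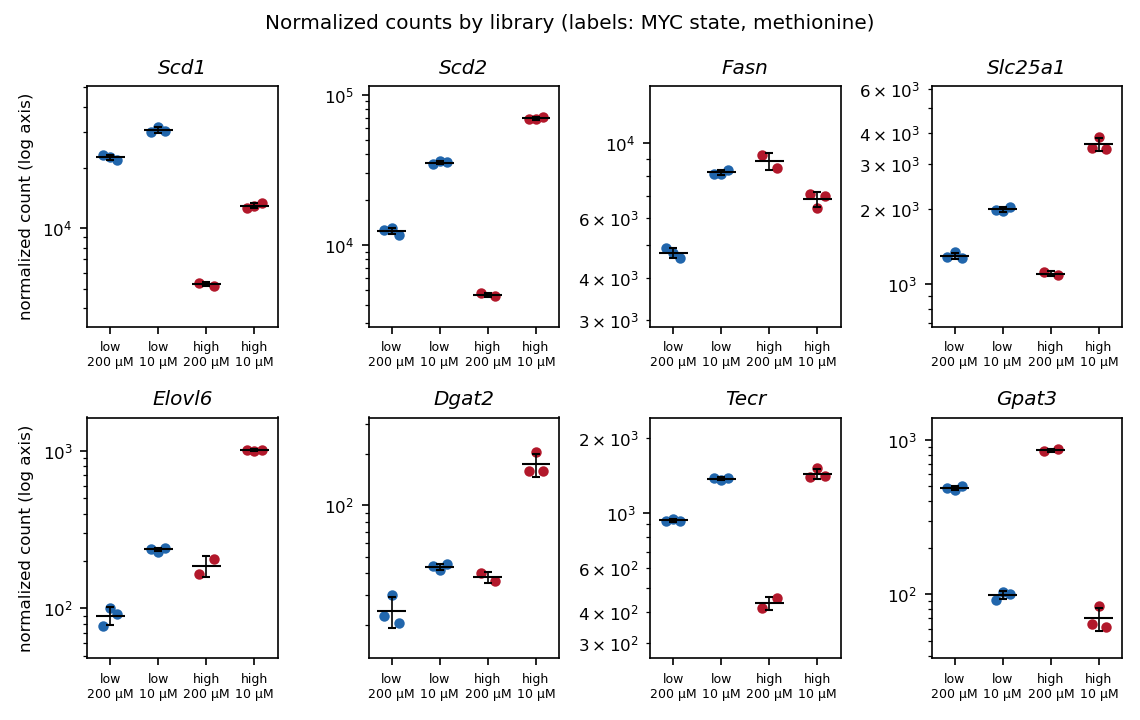
Normalized counts of selected members in each library of the 4 groups, on log axes, with 1 panel per gene and lines for the group mean ± SD. Scd2, Elovl6 and Dgat2 are highest in restricted MYC high cells, Gpat3 is lowest there, and Fasn crosses between the MYC states.

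By the combination of calls, 5 members (Acly, Acsl5, Me1, Scd2 and Slc25a1) were lower in fed MYC high cells, higher at 10 µM and raised by low methionine in both MYC states, a combination held by 2.53% of all tested genes. Of these, the call of Me1 at 200 µM (log2 -0.09, limma adjusted p = 0.019) was lost without replicate 2 of fed MYC high cells (log2 -0.03, adjusted p = 0.44). A further 5 (Acsl4, Fads1, Fads2, Fads3 and Scd1) were lower in MYC high cells in both media and raised by low methionine in both MYC states (8.3% of all tested genes). Dgat2, Elovl6, Acsl3 and Acaca were higher in MYC high cells in both media and raised by low methionine in both MYC states (3.35%). These combinations were described after the calls were seen.

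Among 16 genes of lipogenic transcription control outside the members, 15 were tested, 11 rose and 3 fell at low methionine in MYC high cells (median 0.55), and 9 rose and 3 fell in MYC low cells (median 0.18). Over all tested genes 37.9% rose and 37.9% fell in MYC high cells, and 29.4% rose and 29.9% fell in MYC low cells. Srebf1, which encodes the SREBP factor of fatty acid genes, had 639.8 and 627 normalized counts in fed MYC high cells, 1124, 1091 and 1049 in fed MYC low cells, 2774, 2931 and 2764 in restricted MYC high cells, and 3000.1, 3097 and 3112 in restricted MYC low cells. It rose 4.45-fold with MYC high and 2.82-fold with MYC low (log2 2.15 and 1.5, limma adjusted p = 2.2e-32 and 3.2e-28). Srebf2, the sterol-gene SREBP, rose 6.13-fold and 2.26-fold (limma adjusted p = 7.3e-35 and 9.2e-25), and Insig1, which holds SREBP in the endoplasmic reticulum, 2.67-fold and 2.44-fold (limma adjusted p = 2.9e-19 and 7.1e-19). Mid1ip1, a paralog of Thrsp that binds acetyl-CoA carboxylase, fell by log2 1.05 in MYC high cells (limma adjusted p = 4.1e-21).

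Of 29 further enzymes of the pathway 13 were tested, and 10 rose and 1 fell at low methionine in MYC high cells (median 0.66), against 5 and 3 in MYC low cells (median 0.18), beside the same shares of all tested genes. Without replicate 2 of restricted MYC low cells the falls in MYC low cells numbered 1. Idh1, a cytosolic source of NADPH, rose by log2 1.98 with MYC high and 1.33 with MYC low, and was lower in MYC high cells by -2.15 at 200 µM and -1.5 at 10 µM. Agpat3, of lysophospholipid acylation, rose by log2 1.39 with MYC high and 0.69 with MYC low, and Oxsm, the mitochondrial ketoacyl synthase, rose by 1.42 and 0.33. Me2, the mitochondrial malic enzyme, rose by log2 1.26 in MYC high cells (limma adjusted p = 1.1e-23), with -0.04 in MYC low cells (adjusted p = 0.44). Acot7, an acyl-CoA thioesterase, rose by log2 0.58 and 0.64, and Hacd2, a dehydratase of elongation, fell by 0.31 and 0.34 (limma adjusted p = 0.0010 and 1.6e-04 for Hacd2).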

How the data were processed

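The authors deposited 1 table of normalized counts, a signal value per gene and library, for 11 RNA libraries of EC4 cells in 4 groups. Per the labels' protocols, libraries were made from polyA RNA with NEBNext Ultra II reagents. Per the submitters' processing notes the tools were DESeq2, HTSeq, SAMtools, STAR, fastp and FastQC and the build GRCm39; their order, parameters, annotation and strand setting were not given in the sources used here. Each library's deposited signal values were whole multiples of 1 step, so 100% came out as whole reads within 0.001, with size factors of 0.875 to 1.13. Columns of other samples numbered 0.

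Symbols came from GENCODE M21 (GRCm38), which named 52083 of 55416 identifiers, and the length of a gene was that of all its exons joined together in the same annotation. Log2 values (pseudocount 1), which understate fold changes of low genes, went into 1 limma fit (version 3.58.1, R 4.3.3) over all 4 groups with a mean for each, a trend, and Benjamini-Hochberg adjustment over 12909 genes within each comparison (threshold 0.05). All adjusted p for single genes are limma's unless another tool is named; SE is limma's. The spread of the 2 fed MYC high libraries was assumed to equal that of the other groups. The scripts were tested on simulated data. The interaction is the response to low methionine in MYC high minus that in MYC low cells. Groups were called overlapping where their libraries' ranges met.

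The members and lists were chosen with earlier results of these data known. Values in every library were given for Fasn, Scd1, Scd2, Acaca, Acly, Acss2, Gpam, Lpin1, Dgat2 and each member with a mean of at least 100, an adjusted p under 0.05 and a 2-fold difference in any comparison of 2 groups. Acacb, whose mean is lower, and Me1 were added after their values were seen. Non-members were Myc, Srebf1, Srebf2, Insig1, Pemt and for each related list the 4 or fewer genes with the smallest adjusted p at low methionine, taken separately in MYC high and MYC low cells. Alternatives were other pseudocounts, filters, scalings, trend and group settings, a replicate block, edgeR 4.0.16 and DESeq2 1.42.0 on the recovered reads, and leaving out each library. Promoter windows are of RefSeq on GRCm38.p6; windows of Fads1, Scd1, Gpat4, Mcat, Dgat2, Scd2 and Dgat1 are not shown. Read sharing was measured as 50-base windows found in a transcript of another gene. A result that the naming rule selected among the related genes is not reported here.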

Additional observations from a re-analysis of the deposited data

Results flagged for a closer look

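The methionine response differed between the MYC states, by limma's test of the interaction (adjusted p under 0.05), for 25 of 33 tested members, against 60.4% of all tested genes. The values are log2 differences, the response in MYC high minus that in MYC low cells. The response was more positive in MYC high cells for the carbon supply genes Slc25a1 (1.08), Me1 (0.68) and Acly (0.41). It was also more positive for Acacb of chain synthesis (2.55, at low counts), which met the filter largely through its restricted MYC high libraries. Among elongation genes the values were 1.17 for Tecr, 1.05 for Elovl6, 0.68 for Hacd3, 0.42 for Elovl5 and 0.15 for Hsd17b12. Desaturases gave 2.39 for Scd2, 0.85 for Scd1, 0.17 for Fads1 and 0.14 for Fads3. Synthetases gave 0.74 for Acsl5, 0.52 for Acsl4 and 0.42 for Acsl1. In glycerolipid assembly the values were 1.30 for Dgat2, 0.76 for Lpin1, 0.60 for Gpam, 0.24 for Agpat1 and 0.16 for Gpat4. The response was more negative in MYC high cells for Gpat3 (-1.32), Fasn (-1.16), Acsl3 (-0.52) and Lpin2 (-0.23).

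Of these, 4 small values were lost when 1 library was left out. Fads3 was 0.10 (adjusted p = 0.085) and Lpin2 -0.17 (adjusted p = 0.12) without replicate 3 of fed MYC high cells. Gpat4 was 0.14 (adjusted p = 0.052) without replicate 2 of fed MYC low cells. Hsd17b12 was 0.13 (adjusted p = 0.14) without replicate 2 of fed MYC high cells and 0.09 (adjusted p = 0.20) without replicate 3 of fed MYC low cells, and was also lost without either replicate 1 or 2 of either MYC state at 10 µM.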

How the results depend on the processing

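Every count of members called kept within 1.5 times its value under each alternative run, and no named value reversed. Leaving out 1 library gave 7 to 8 members higher and 18 to 20 lower in MYC high than MYC low cells at 200 µM, 13 to 14 and 10 to 11 at 10 µM, 25 to 27 risen and 4 fallen at low methionine in MYC high cells, 22 to 25 and 3 to 4 in MYC low cells, and 20 to 22 and 3 to 5 for the interaction. Further calls that 1 library decided are those of Agpat1 between MYC states at 10 µM (log2 -0.10, limma adjusted p = 0.0496), which was lost without replicate 2 or 3 of fed MYC low cells, replicate 1 or 3 of restricted MYC high cells or any of the restricted MYC low cells (adjusted p up to 0.23), and of Elovl7 in MYC low cells without replicate 2 at 10 µM (log2 0.14, limma adjusted p = 0.25). The falls and rises given above of Hsd17b12 in MYC low cells, Me1 at 200 µM and Acsl3 in MYC high cells were also lost without replicate 1 or 2 of restricted MYC low cells, replicate 2 of fed MYC low cells and replicate 1 of restricted MYC high cells, respectively. Calls gained without 1 library were small: Acsl1 (-0.23) and Mcat (-0.24) between MYC states at 200 µM, Elovl7 (0.22), Agpat2 (-0.14) and Gpam (0.15) at 10 µM, Agpat2 (0.10) and Gpam (0.16) at low methionine in MYC low cells, and Elovl1 (-0.25) and Agpat2 (0.17) for the interaction. Other settings gave ranges of 7 and 17 to 21, 12 to 14 and 10 to 13, 26 to 27 and 4, 22 to 26 and 3 to 4, and 18 to 21 and 4 to 5, in the same order of comparisons.

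Libraries with the same number did not deviate together (correlations of -0.05 to 0.03), so the numbers were not read as pairing. With the replicate block the counts were 7 and 20, 13 and 10, 27 and 4, 24 and 4, and 21 and 4, in the same order. Scaling moved the median of all genes by at most 0.0859 on the log2 scale. Depth limits Thrsp and Mlxipl, which had too few reads to test, and Acacb and Dgat2, whose values rest on few reads at 200 µM.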

Other observations

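Of 23 genes of phospholipid head group synthesis 20 were tested, and 10 rose and 5 fell at low methionine in MYC high cells (median 0.33), against 7 and 6 in MYC low cells (median 0.05). Over all tested genes 37.9% rose and 37.9% fell in MYC high cells, and 29.4% and 29.9% in MYC low cells, so the counts in MYC low cells are near the background. Chka, the choline kinase that opens the CDP-choline route, had 4383 and 4296 normalized counts in fed MYC high cells, 2963, 3033 and 2831 in fed MYC low cells, 2209.6, 2064 and 2187 in restricted MYC high cells, and 2488, 2405 and 2364 in restricted MYC low cells. It fell by 1.01 on the log2 scale with MYC high and by 0.28 with MYC low (limma adjusted p = 4.1e-23 and 1.3e-08). Cdipt, the phosphatidylinositol synthase, fell by log2 1.58 and 0.80 (limma adjusted p = 4.5e-28 and 1.2e-19), and Pcyt2, of the CDP-ethanolamine route, rose by 1.40 and 0.59 (limma adjusted p = 2.0e-21 and 1.6e-11). The lysophospholipid acyltransferases Lpcat4 and Lpcat3 rose by log2 0.997 and 0.45 with MYC high and 0.54 and 0.62 with MYC low. Of cardiolipin synthesis, Crls1 fell by log2 0.86 and 0.78, and Pgs1 fell by 0.22 with MYC high and rose by 0.50 with MYC low (limma adjusted p = 1.2e-04 and 1.3e-12). Pemt, which methylates phosphatidylethanolamine to phosphatidylcholine, had 44.6 and 35 normalized counts in fed MYC high and 21.5, 24.6 and 29.0 in fed MYC low cells, and 43.8, 50.6 and 23.3 in restricted MYC high and 19.9, 20.9 and 31.7 in restricted MYC low cells. Its response to low methionine did not pass in either MYC state (log2 -0.08 and -0.07, limma adjusted p = 0.81 and 0.84). Its MYC difference at 200 µM (log2 0.65, limma adjusted p = 0.042) was 0.48 without replicate 2 of the MYC high cells (limma adjusted p = 0.24), and that at 10 µM (log2 0.64, limma adjusted p = 0.027) was 0.42 without replicate 2 of the MYC high cells (limma adjusted p = 0.19). Each was also lost without replicate 1 or 2 of the MYC low cells, the latter also without replicate 1 of the MYC high cells.

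Of 18 genes of lipid droplets and triglyceride breakdown 12 were tested, and 6 rose and 4 fell at low methionine in MYC high cells (median 0.22), against 5 and 4 in MYC low cells (median 0.20). The falls, 4 of 12, are near the shares of all tested genes given above. Plin2, the main droplet coat protein of liver cells, stood at 16977 and 17167 normalized counts in fed MYC high cells, 12526, 12734 and 12812 in fed MYC low cells, 3687, 3888 and 3596 in restricted MYC high cells, and 5860.2, 6174 and 5921 in restricted MYC low cells. Like Gpat3 it was highest in fed MYC high cells and lowest in the same cells at 10 µM, with falls of 2.20 and 1.08 (log2) in MYC high and MYC low cells (limma adjusted p = 5.2e-36 and 2.6e-27). Hilpda, an inhibitor of the triglyceride lipase, fell by log2 1.76 and 1.49 (limma adjusted p = 1.6e-21 and 3.0e-20). Other droplet genes rose. Plin4, another droplet coat protein, rose by log2 2.13 in MYC high cells (limma adjusted p = 9.9e-16), with 0.27 in MYC low cells (adjusted p = 0.077, and 0.0014 with edgeR on the recovered reads). Bscl2, the seipin of droplet formation, rose by log2 1.13 and 0.69 (limma adjusted p = 4.4e-15 and 2.5e-10), and Mgll, the monoglyceride lipase, by 3.21 and 1.77 at low counts (limma adjusted p = 2.3e-13 and 6.1e-08). Of 15 uptake and binding genes 8 were tested, and 5 rose and 1 fell in MYC high cells (median 0.76), against 6 and 0 in MYC low cells (median 0.59). The shares of all tested genes were 37.9% risen and 37.9% fallen with MYC high, and 29.4% and 29.9% with MYC low. Cd36, a fatty acid carrier, had 11.4 and 6.37 normalized counts in fed MYC high cells, 4.88, 20.5 and 9.68 in fed MYC low cells, 139, 117 and 144 in restricted MYC high cells, and 44.3, 63.6 and 49.4 in restricted MYC low cells. The 2 media did not overlap in either MYC state, and the rise was 3.81 with MYC high and 2.26 with MYC low on the log2 scale (limma adjusted p = 4.4e-13 and 2.2e-08). Dbi, the acyl-CoA binding protein, rose 2.73-fold and 2.01-fold (limma adjusted p = 8.9e-25 and 9.7e-21), and the fatty acid transporter Slc27a1 by log2 2.39 and 0.54 (limma adjusted p = 3.5e-22 and 3.0e-06). Fabp5, a fatty acid binding protein, rose by log2 0.52 and 0.65, and Acbd3 fell by 0.55 in MYC high cells (limma adjusted p = 1.4e-11), with 0.10 in MYC low cells (adjusted p = 0.087, and 0.020 with upper-quartile scaling).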
